A study of Mus musculus with 30 samples.

Results

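Between the first and the second day in control medium, cultured limb mesenchyme gained transcripts of the cartilage matrix and of fibrous matrix, and lost some transcripts of the distal limb bud, when its 3 populations were pooled. The comparison set the 6 arrays of control cultures at day 2 against the 6 arrays of control cultures at day 1, with the populations pooled and population kept as a block. These 12 arrays are part of 30 in the series. They were chosen by their labels, so no measured value entered the choice.

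CD-1 embryos at E10.5 supplied the limb bud cells, which were plated as dense spots in medium with serum. The protocol text also names E11.5 limb buds, but all 12 arrays are labelled E10.5. Each day holds 2 arrays of each population: early (distal hindlimb), intermediate (distal forelimb) and late (proximal forelimb). No BMP4 was added to any of these 12 cultures. The other 18 arrays hold control cultures at day 0 and cultures given 20 ng/ml BMP4 at days 1 and 2, and of these only the 6 control arrays of day 0 are cited below, as levels before the first day of culture. Per the labels, RNA came from cultures of about 280 embryos without amplification, so every value is an average over many embryos and over all cells in the dish. The labels call the replicates biological without saying how they were separated, and the p-values below measure only the spread between these samples.

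In such dense cultures, limb bud mesenchyme first aggregates into condensations, and cells within them turn into chondrocytes under SOX9, which with SOX5 and SOX6 switches on collagen II, aggrecan and other matrix genes. Cells between the nodules form fibrous tissue, and muscle precursors that have migrated into the limb bud can form muscle. Distal mesenchyme in the embryo is held in a progenitor state by FGF from the apical ectodermal ridge, a signal whose source lies outside the mesenchyme.

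Signals are given as log2(signal + 16), and a change is the day 2 minus the day 1 value on that scale, which understates the change of dim genes. Genes of limb type matched the labels, and a proximal gene did not. Pitx1, a hindlimb factor, was between 9.68 and 9.95 on the 4 early arrays and between 5.22 and 6.28 on the 8 forelimb arrays. Tbx5, a forelimb factor, was between 8.32 and 8.93 on the forelimb arrays and between 4.73 and 5.82 on the early arrays. Meis2, a proximal factor, was between 9.37 and 10.06 on the late and early arrays and between 7.39 and 8.36 on the intermediate arrays. It was thus as high in the early cultures, labelled distal, as in the late cultures, labelled proximal. The summed signal of 12 proximal genes was, likewise, 10320 to 12310 on early, 9657 to 11400 on late and 5776 to 7064 on intermediate arrays, and the name early is used below for the label alone. Prrx1, a factor of limb mesenchyme, was between 10.59 and 10.92 at day 2 and between 10.79 and 11.37 at day 1, a fall by 0.34 ± 0.08 on the log2 scale (adjusted p = 0.0129, limma). Replicates of a group correlated at 0.971 to 0.98 over the tested genes. The 3' minus 5' log2 signal of the Gapdh control lay between -0.341 and -0.241 at day 2 and between -0.407 and -0.22 at day 1.

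Of 14506 genes tested with limma, 981 were higher at day 2 (6.76%) and 558 were lower (3.85%) at a Benjamini-Hochberg adjusted p under 0.05, two-sided. With the replicate number as a block, 1504 were higher and 1045 lower, and these included all of the 981 and 558. The rises were larger: their median was 0.52 log2, against 0.36 in size for the falls. Rises of over 1 log2 were called for 137 genes (0.944%) and falls of that size for 10 genes (0.0689%). The sign was the same in all 3 populations for 976 of the 981 higher genes and 557 of the 558 lower genes. The pooled fit that called these genes favours a shared sign, so this count is no separate evidence that the populations agree. All 6 day 2 arrays lay above all 6 day 1 arrays for 451 genes (3.11%), and below them for 280 genes (1.93%). Since RNA was taken from whole dishes, more or fewer cells of a type and more or less RNA per cell cannot be told apart in any of these changes. List members named beyond the 4 with the largest called change in their list were chosen after their values were seen. All list counts below stand beside the shares of all tested genes, 6.76% higher and 3.85% lower.

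Genes of the cartilage matrix led the rises. Matn1, which encodes the cartilage matrix protein matrilin 1, had the lowest, median and highest signals 8.58, 9.76 and 10.28 at day 2, against 5.15, 5.78 and 6.24 at day 1. The days did not overlap, and the rise was 3.89 ± 0.24 (SE), a 14.9-fold change (adjusted p = 9.01e-07, limma). Hapln1, the link protein that ties aggrecan to hyaluronan, was at 7.93, 8.98 and 9.48 at day 2, against 5.36, 5.53 and 6.03 at day 1. It rose by 3.22 ± 0.21, or 9.29-fold (adjusted p = 1.21e-06), again without overlap, and its median at day 0 had been 6.48. Mia, a secreted protein of chondrocytes, rose 6.85-fold. Csgalnact1, an enzyme that starts chondroitin sulfate chains, rose 5.86-fold (2.55 log2), and by 0.87 log2 on another probe set. Matn3, a second matrilin, rose 4.72-fold (2.24 log2), and by 1.15 log2 on another probe set. By the brightest probe set, every day 2 array lay above every day 1 array in all 3 of these genes.

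Among proteoglycans and other cartilage matrix genes, 17 of 18 tested members were higher at day 2 and 0 were lower, with a median change of 1.53, where the median over all tested genes was -0.0004. The list holds 20 genes, of which 19 were on the array, and it gave 10 higher where a gene had to be above the 40th percentile on all 12 arrays. That filter left members such as Matn1 and Csgalnact1 untested, so the 10 are not out of 18. Acan, the core protein of aggrecan, was at 7.45, 8.05 and 8.49 at day 2, against 6.33, 6.79 and 7.02 at day 1. Its rise of 1.29 ± 0.15 (adjusted p = 0.000134) was found in all 6 pairs of arrays with the same population and number. The other 11 members that rose were Comp, Cytl1, Chad, Matn4, Papss2, Fmod, Cnmd, Epyc, Snorc, Chadl and Chst11, by 0.52 to 1.79. Papss2 makes the sulfate donor for glycosaminoglycans, and Cnmd (chondromodulin) is an inhibitor of vessel growth made by cartilage. The sulfate transporter Slc26a2 changed by 0.46 ± 0.15 and did not pass (adjusted p = 0.0744). In the populations taken alone, 12 (early), 12 (intermediate) and 7 (late) members were higher, beside 1.12%, 0.765% and 0.614% of all tested genes. The summed linear signal of the 18 members had a lowest, median and highest value of 6286, 9100 and 11240 at day 2, against 2343, 2641 and 3141 at day 1.

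Most cartilage collagens rose. Of 5 tested chains of collagens IX and XI, 4 rose: Col9a3 by 1.17 ± 0.15, Col11a1 by 1.15 ± 0.14, Col11a2 by 1.14 ± 0.14 and Col9a2 by 1.09 ± 0.15. All 4 were without overlap between the days, and Col27a1 rose by 0.50 ± 0.11. Col2a1, the main fibril collagen of cartilage, was at 11.19, 11.81 and 11.99 at day 2, against 11.11, 11.48 and 11.92 at day 1. The days overlapped, and its change of 0.26 ± 0.10 did not pass (adjusted p = 0.14, 95% interval 0.03 to 0.48). With the replicate number within population as a block it passed (adjusted p = 0.035), and it also passed without the first intermediate array of day 1 (adjusted p = 0.0492). Its median at day 0 had been 7.98, so most of the difference from day 0 was present at day 1. Col9a1, likewise near the top of its range at day 1 with a median of 11.86, changed by 0.29 ± 0.10 (adjusted p = 0.0803) on its brightest probe set, and by 0.54 on another one that passed (adjusted p = 0.0245). By their brightest probe sets, 5 of 7 cartilage collagens were higher and 0 were lower, and in a population alone 3 (early), 2 (intermediate) and 0 (late) were higher.

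**Figure D1:**
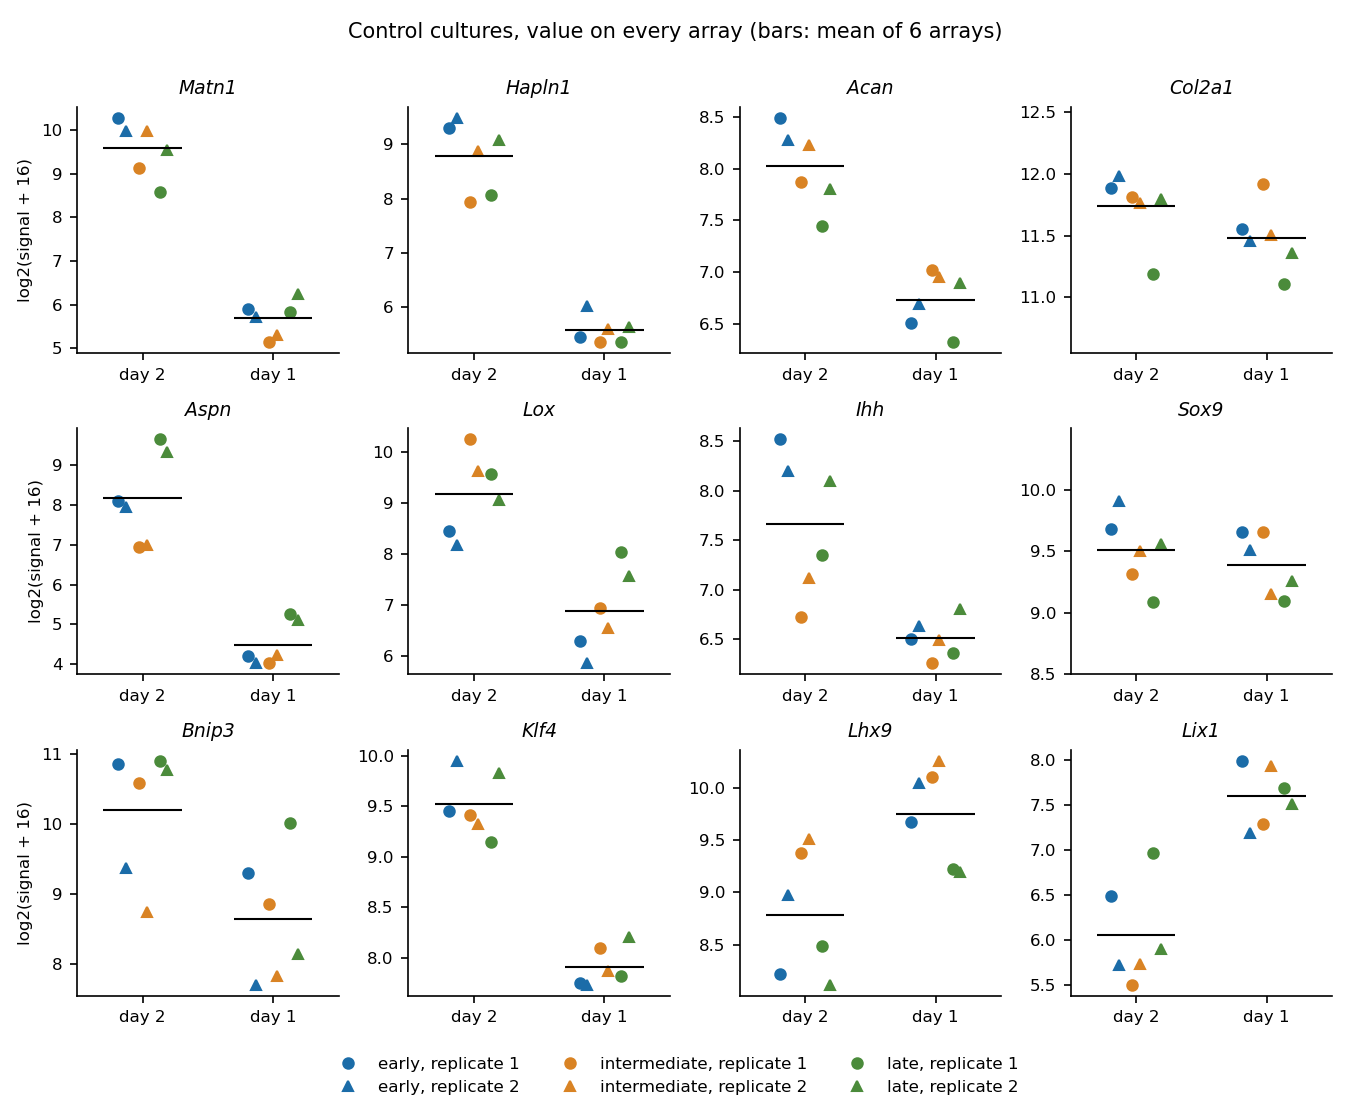
Signal on the log2(signal + 16) scale of 12 genes on each of the 12 arrays, day 2 left of day 1 in each panel. Colours mark the population, circles replicate 1 and triangles replicate 2, and bars the mean of 6 arrays. Matn1, Hapln1, Acan, Aspn and Lox separate the days without overlap, Col2a1, Ihh, Sox9, Bnip3 and Lhx9 overlap, Klf4 lies higher and Lix1 lower on all day 2 arrays.

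The SOX factors that start chondrogenesis did not pass. Sox9 was at 9.09, 9.53 and 9.91 at day 2, against 9.09, 9.38 and 9.66 at day 1, so the days overlapped. Its change was 0.12 ± 0.10 (adjusted p = 0.524, 95% interval -0.10 to 0.34). Sox5 changed by 0.00 ± 0.12 and Sox6 by -0.05 ± 0.15. Of 11 tested members of the list, 3 forkhead genes rose and 0 members fell, against 4 and 1 with the replicate number as a block. Foxa3 rose by 1.23 ± 0.12 (adjusted p = 4.02e-05) and Foxc2 by 1.21 ± 0.19 (adjusted p = 0.00138), both without overlap, and Foxc1 by 0.53 ± 0.13. FOXC proteins act with SOX9 on cartilage genes, and FOXA proteins are known in mouse for their part in chondrocyte maturation.

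Genes of later cartilage and of bone rose too, several of them from signals near the bottom of the scale. Ihh, the signal of prehypertrophic chondrocytes, was at 6.72, 7.72 and 8.52 at day 2, against 6.26, 6.5 and 6.81 at day 1. The days overlapped, yet all 6 same-number pairs were higher at day 2, and the rise was 1.16 ± 0.20 (adjusted p = 0.00229). Col10a1, the collagen of hypertrophic cartilage, was at 4.28, 5.33 and 5.59 at day 2, against 4.16, 4.26 and 4.45 at day 1, a rise of 0.93 ± 0.18 (adjusted p = 0.0066). It lay above the 40th percentile of the array on 3 of 6 arrays at day 2 and on 0 at day 1, so its level was dim. It thus passed the filter through day 2 arrays alone, and its call and its place in the count below depend on them. Sp7, a factor that osteoblasts require, rose by 1.09 ± 0.15, and Panx3, a channel of maturing chondrocytes and osteoblasts, by 1.00 ± 0.15. Dlx5 rose by 0.79 ± 0.17 and Mef2c by 0.41 ± 0.10. Runx3, a factor of chondrocyte maturation, rose by 1.03 ± 0.30 (adjusted p = 0.0418), a call that was lost when any 1 of 8 of the 12 arrays was left out (adjusted p up to 0.0839). Another Runx3 probe set was at 0.19 and did not pass (adjusted p = 0.635, limma). In all, 7 of 9 tested members of this list were higher and 0 lower, Col10a1 among the 7, with Pth1r at 0.43 and Alpl at 0.29 below the threshold. Under that stricter filter 4 were higher, and Col10a1, Panx3 and Runx3 were not tested.

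Of 9 tested joint genes, 2 were higher and 0 lower, beside 6.76% and 3.85% of all tested genes. Dkk3, a secreted protein, rose by 1.30 ± 0.22 and Erg, a factor of articular cartilage, by 0.57 ± 0.16, which was lost without any 1 of 8 arrays (adjusted p up to 0.0843). Gdf5, a BMP family signal of the forming joint, was at 6.28, 7.43 and 9.59 at day 2, against 7.04, 7.85 and 9.58 at day 1. Its change was -0.41 ± 0.24 (adjusted p = 0.309), and it passed with the replicate number within population as a block (adjusted p = 0.0189). That block gave 3 higher and 2 lower among the 9 tested joint genes, where the fit without it gave 2 and 0.

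Fibrous matrix genes rose widely too. Aspn (asporin), a small leucine-rich protein of tendon, periosteum and joint tissue, was at 6.95, 8.02 and 9.65 at day 2, against 4.03, 4.21 and 5.26 at day 1. Without overlap, it rose by 3.69 ± 0.19, or 12.9-fold (adjusted p = 2.21e-07), and at day 0 its median was 4.03, the bottom of the scale. Ogn (osteoglycin), of the same protein family, was at 9.41, 10.19 and 10.72 at day 2, against 6.78, 7.62 and 8.48 at day 1, a 5.75-fold rise without overlap. Tnmd, a marker of maturing tendon cells, rose by 1.86 ± 0.26 and Lum (lumican) by 1.79 ± 0.18, both without overlap. In this list 14 of 20 tested members were higher and 0 lower, with a median change of 0.78, and 5 (early), 7 (intermediate) and 6 (late) were higher in a population alone. The rises included Tnc by 1.36, Bgn by 1.27, Postn by 0.96, Col6a3 by 0.95, Col1a2 by 0.57 and Col3a1 by 0.25. Scx, the factor that marks tendon progenitors, was at 7.00, 7.61 and 8.62 at day 2, against 6.88, 7.13 and 7.59 at day 1. It did not pass (0.50 ± 0.21, adjusted p = 0.145), except without the second early array of day 1 (adjusted p = 0.0423). Col1a1, the main chain of collagen I, was at 0.37 ± 0.21 (adjusted p = 0.303).

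**Figure D2:**
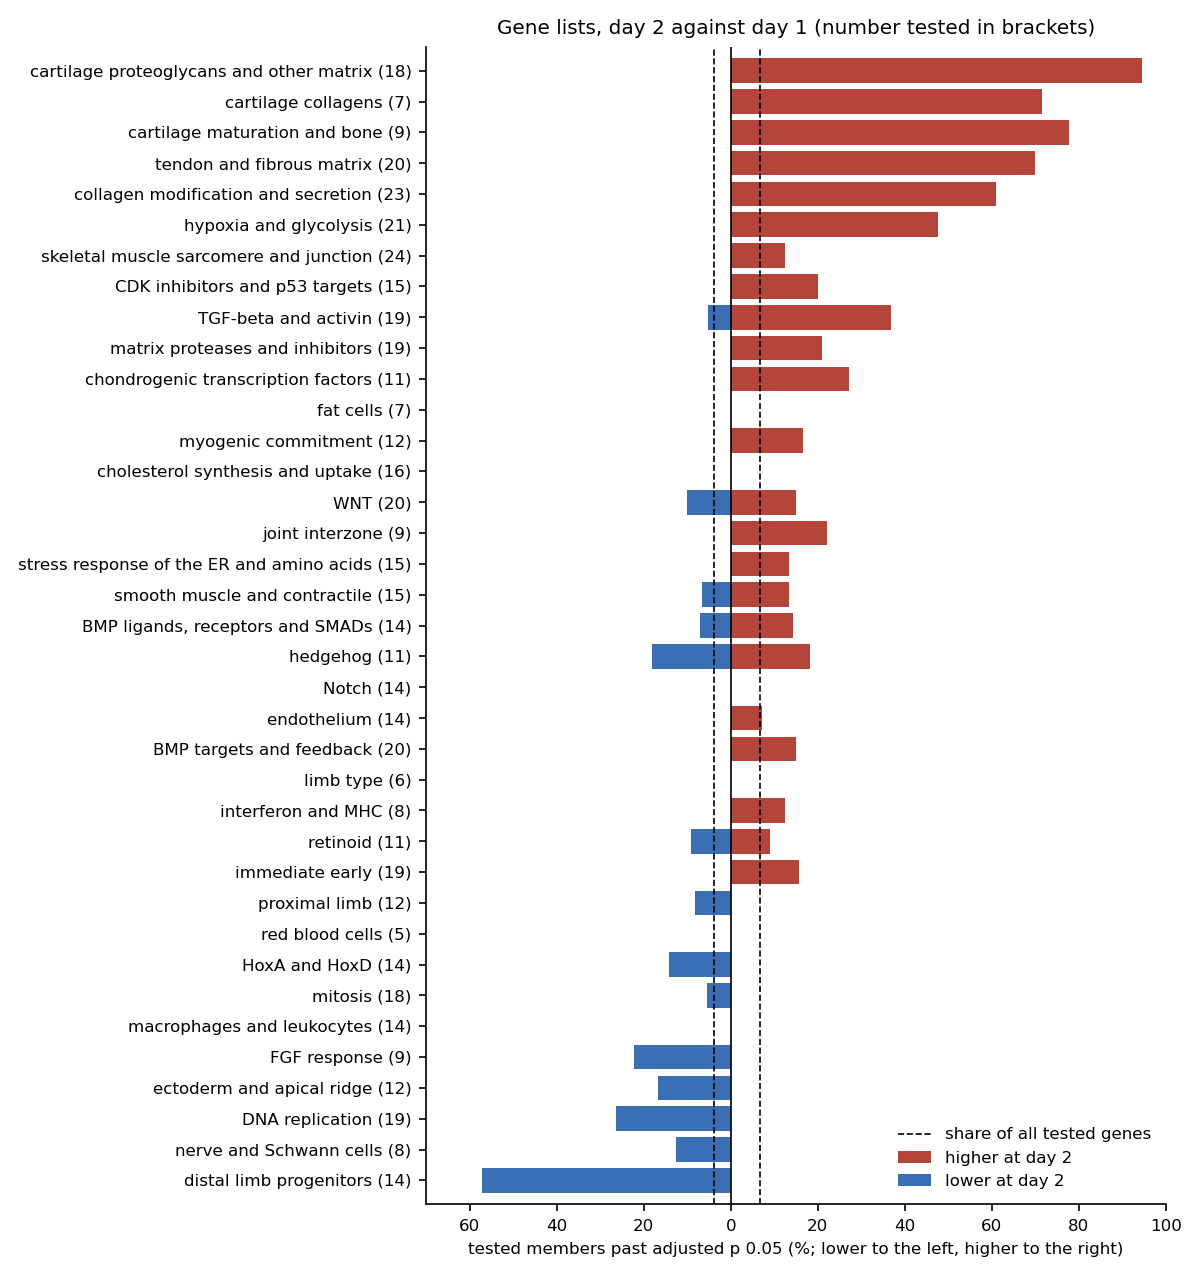
Share of the tested members of each of 37 gene lists called higher (bars to the right) and lower (bars to the left) at day 2, in percent, ordered by the median change of the list. The dashed lines mark the shares over all 14506 tested genes, 6.76% higher and 3.85% lower. Cartilage proteoglycans, maturation, collagens, fibrous matrix and collagen modification reach furthest to the right, and distal limb progenitors furthest to the left. The lists were chosen with earlier results of these data known.

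The enzymes and carriers that prepare collagen rose with it. Of 23 tested members of that list, 14 were higher and 0 lower, with a median change of 0.57. Lox, the oxidase that cross-links collagen and elastin, was at 8.17, 9.31 and 10.25 at day 2, against 5.85, 6.74 and 8.04 at day 1. It rose by 2.31 ± 0.24, or 4.97-fold (adjusted p = 5.52e-05), without overlap. Of its other probe sets, 1 rose by 2.20 and 1 was at 0.58 and did not pass (adjusted p = 0.106, limma). The prolyl 4-hydroxylase subunits P4ha1, P4ha3 and P4ha2, which stabilise the triple helix, rose by 1.08, 0.83 and 0.74. The lysyl hydroxylases Plod1 and Plod2 rose by 0.65 and 0.61. Sec24d and Sec23a, coat proteins of the vesicles that carry procollagen, rose by 0.80 and 0.34, and the factors Creb3l1 and Creb3l2 by 0.57 and 0.46. Serpinh1, the collagen chaperone, was at 0.10 ± 0.04 (adjusted p = 0.151), while its other probe set passed at 0.25 (adjusted p = 0.0162). Among proteases and their inhibitors 4 of 19 were higher and 0 lower, and 7 with the replicate number as a block. They were Mmp9 (1.19 ± 0.20), Adamts9 (0.59 ± 0.12), Mmp2 (0.47 ± 0.11) and Mmp14 (0.42 ± 0.08), enzymes that cut matrix, and none of the inhibitors Timp1, Timp2, Timp3 and Timp4 passed.

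The remaining genes among the 12 largest rises were Bhlhe40 (5.53-fold), a repressor of the circadian clock that hypoxia can induce, Rtl3 (5.46-fold), a retrotransposon-derived gene, Susd5 (4.88-fold) and Col8a2 (4.87-fold), a short-chain collagen. Every day 2 array lay above every day 1 array in all 4 genes. The next 12, named after their values were seen, ranged from 2.14 for Ppp1r3c, a regulator of glycogen synthesis, to 1.72 for Cox6b2. They included Tnfrsf11b (2.06 ± 0.12), the osteoprotegerin gene, Mgp (1.91 ± 0.24), an inhibitor of mineral deposition, and Thbs2 (1.80 ± 0.21), a matrix glycoprotein.

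**Figure D3:**
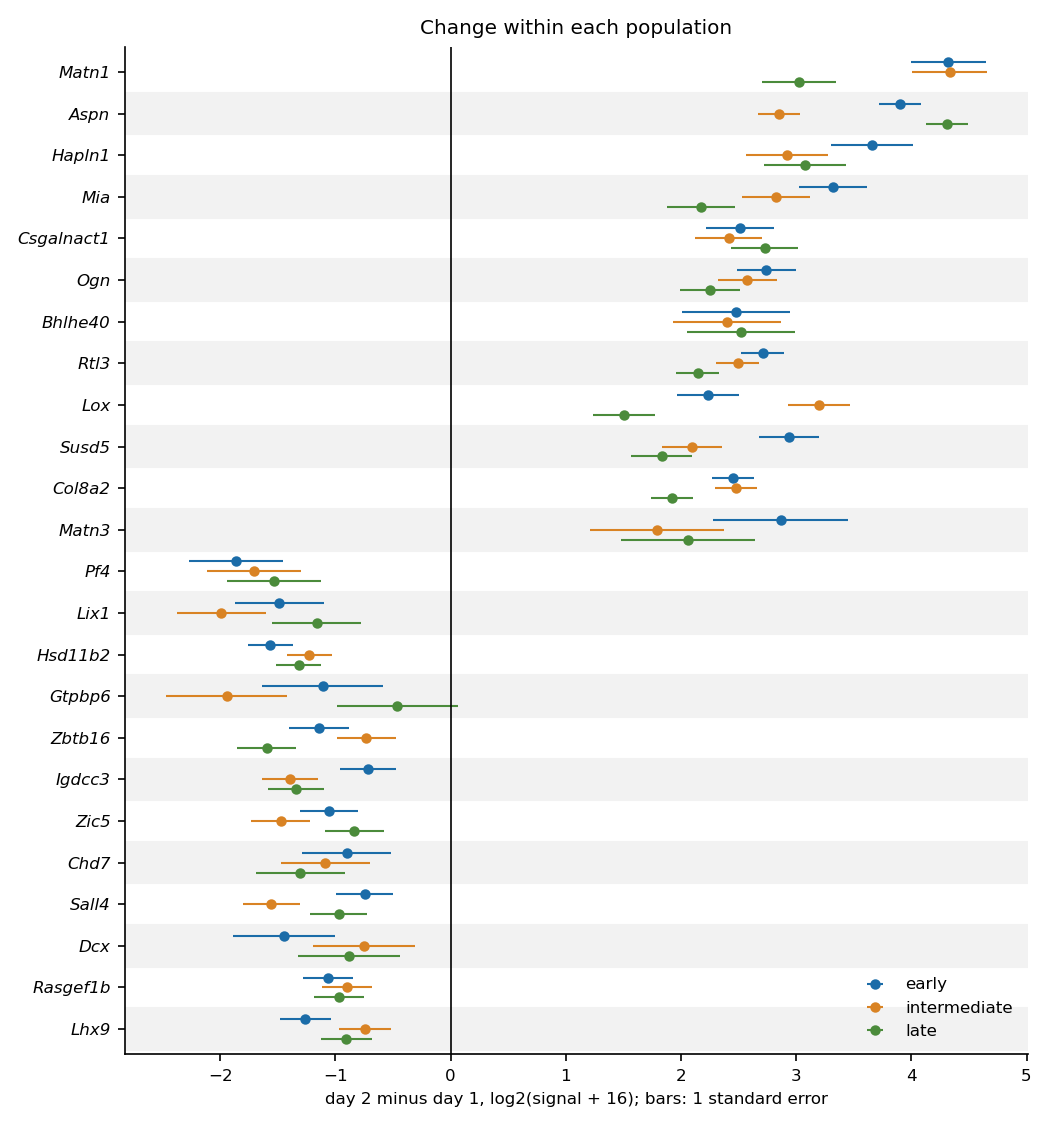
Day 2 minus day 1 change on the log2 scale, with 1 SE, in the early, intermediate and late populations for the 12 genes with the largest called rise and the 12 with the largest called fall. All 24 genes keep 1 sign in the 3 populations, with Matn1 at 4.32 (early), 4.33 (intermediate) and 3.02 (late). The pooled choice of these genes favours a shared sign.

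The list of distal limb bud genes, which also holds genes of embryonic timing, had the largest share of falls among the 37 lists. The lists were chosen with earlier results of these data known, so this rank is no independent support. Of 14 tested members, 8 were lower and 0 higher, all 14 changes were below 0, and the median was -0.44. In a population alone 1 (early), 3 (intermediate) and 1 (late) were lower, beside 0.152%, 0.131% and 0.0827% of all tested genes. Lix1, a gene of distal limb mesenchyme, was at 5.51, 5.82 and 6.97 at day 2, against 7.19, 7.6 and 8.0 at day 1. All day 2 arrays lay lower, and the fall was 2.92-fold (-1.55 ± 0.22, adjusted p = 0.00077). Sall4, a zinc finger factor of early limb and stem cells, was at 4.99, 5.66 and 6.57 at day 2, against 6.31, 6.95 and 7.27 at day 1. Its ranges overlapped slightly, with all 6 pairs lower, and it fell 2.13-fold, after a day 0 median of 9.27. Lhx9 fell by 0.97 on the log2 scale and Lhx2 by 0.69. These LIM factors relay signals from the ridge to the mesenchyme. Igdcc3 fell by 1.15, Trim71, a regulator of embryonic timing, by 0.91, Tfap2a by 0.45 and Mycn by 0.44. Hmga2 was bright, between 12.02 and 12.31 at day 2 and between 12.13 and 12.57 at day 1, and did not pass (-0.12 ± 0.06). Of its other probe sets, 1 passed (-0.21, adjusted p = 0.0395) and 1 did not (-0.26, adjusted p = 0.0595). The summed signal of the 14 genes, most of it from the uncalled Hmga2, was 5703, 6760 and 6871 at day 2, against 6966, 8177 and 9069 at day 1.

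Genes that report FGF signalling fell in 2 of 9 cases: Dusp6, a phosphatase induced by FGF, by 0.52 and Il17rd, an FGF antagonist, by 0.43. The Il17rd call was lost without any 1 of 6 arrays (adjusted p up to 0.0746). Another Il17rd probe set was at -0.12 and did not pass (adjusted p = 0.58, limma). Etv4, Etv5, Spry1, Spry2 and Spry4 did not pass. Of 14 HoxA and HoxD genes, Hoxd9 fell by 0.85, without overlap, and Hoxd10 by 0.45. None of 6 genes of limb type passed. Of 12 proximal genes Tbx18 fell by 0.46, a call lost without the second late array of day 2 (adjusted p = 0.0502), and 2 or 3 fell with a replicate block. Without the first intermediate array of day 1, 3 proximal genes fell. Meis2 was at -0.32 ± 0.14 (adjusted p = 0.187), below the threshold, and lower in all 6 pairs. It passed with either replicate block (adjusted p = 0.0376 and 0.00536) and without the first intermediate array of day 1 (adjusted p = 0.0471), and another of its probe sets passed (-0.48, adjusted p = 0.0119).

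The other large falls were of mixed kinds. Pf4, a chemokine of platelets and some macrophages, was at 5.75, 6.04 and 7.19 at day 2, against 7.13, 7.74 and 8.79 at day 1, with a slight overlap. It fell 3.24-fold (-1.70 ± 0.22, adjusted p = 0.000307). Hsd11b2, which inactivates glucocorticoids, fell 2.58-fold with all day 2 arrays lower, at 7.35 to 7.78 against 8.47 to 9.31. Zbtb16, a zinc finger factor needed for limb patterning, fell 2.23-fold, Zic5 2.18-fold, the chromatin remodeller Chd7 2.14-fold, the microtubule protein Dcx 2.04-fold and Rasgef1b 1.97-fold. Gtpbp6 fell 2.25-fold (adjusted p = 0.0344), a call lost without any 1 of 9 arrays (adjusted p up to 0.0796). The next 12 falls, named after their values were seen, ranged from -0.93 for Ifitm1 to -0.82 for Ntn1 (netrin 1), and held Dusp9, Mecom and Mtm1.

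Hypoxia and glycolysis genes were higher at day 2 in 10 of 21 cases and lower in 0, with all 21 changes above 0 and a median of 0.50. This is the set induced by hypoxia-inducible factors when oxygen is low. Bnip3, a mitochondrial protein of that response, was at 8.75, 10.68 and 10.91 at day 2, against 7.71, 8.5 and 10.02 at day 1. The days overlapped while all 6 same-number pairs were higher, and the rise was 1.56 ± 0.41 (adjusted p = 0.0268), lost without any 1 of 7 arrays (adjusted p up to 0.0673). Ankrd37 rose by 1.28 ± 0.32 and was lost without any 1 of 3 arrays: the first early array of day 2, the first late array of day 2 and the second late array of day 1 (adjusted p up to 0.0558). Ndrg1 rose by 1.01 ± 0.20, Slc2a1, the glucose transporter GLUT1, by 0.88 ± 0.12, and Ero1a by 0.55 ± 0.10, all 3 without overlap. Egln3 and Egln1, the oxygen sensors that mark these factors for breakdown, rose by 1.02 and 0.50. Higd1a rose by 0.67, Vegfa by 0.59 and the hexokinase Hk2 by 0.46. Several glycolytic enzymes did not pass, with Ldha at 0.16, Aldoa at 0.16, Pgk1 at 0.09 and Pgam1 at 0.08, and neither did Pdk1 at 1.17 ± 0.39 (adjusted p = 0.0777).

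These genes also differed by replicate number. Their summed signal was higher on replicate 1 than on replicate 2 in all 6 groups, at 27600 and 17440 in early day 2 cultures, 23560 and 16630 in intermediate day 2 cultures, and 29870 and 25460 in late day 2 cultures. At day 1 the sums were 20470 and 15680 in early cultures, 18080 and 15090 in intermediate cultures, and 23650 and 15300 in late cultures. Each day 2 sum exceeded the day 1 sum of the same population and number. With the number as a block, 15 of 21 members were higher and 0 lower. Such a difference was not particular to this list. The sums of the cholesterol, fat, retinoid, red cell and limb type lists were also higher on replicate 1 in all 6 groups. Those of smooth muscle genes, of kinase inhibitors and p53 targets, and of immediate early and interferon genes were higher on replicate 2 in all 6. What the numbers stand for was not tested.

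**Figure D4:**
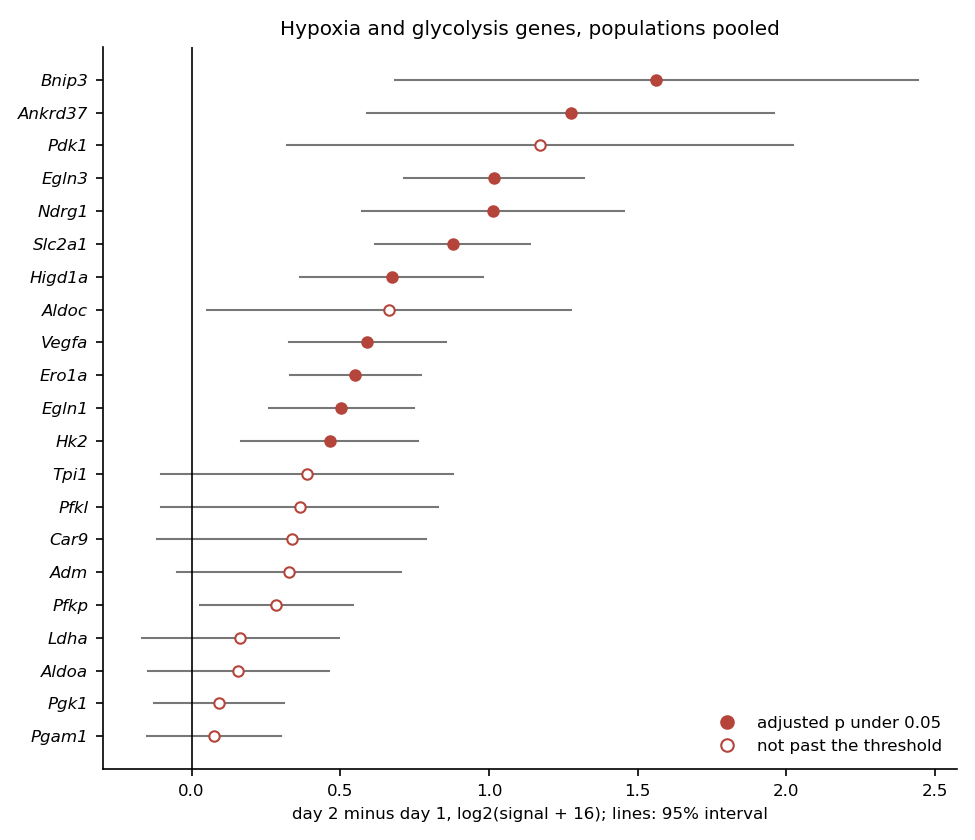
Day 2 minus day 1 change on the log2 scale, with its 95% interval, of the 21 tested hypoxia and glycolysis genes, populations pooled. Filled points are the 10 genes past the threshold. The changes run from 1.56 for Bnip3 to 0.08 for Pgam1, and all lie above 0.

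The promoters of some of the 10 genes that rose are shown since the factor that regulates this set has a known core motif. ACGTG, a core of the hypoxia response element, was searched on both strands (ACGTG or CACGT) in the 250 bases before the start, from RefSeq on GRCm38.p6. It was present in 8 of 9 of the higher hypoxia genes that had an entry (88.9%) and in 13 of 20 tested members with an entry (65%), against 2786 of 11643 tested genes (23.9%). Among all genes higher at day 2 the share was 200 of 778 (25.7%). The list was drawn up from genes of the hypoxia response. Its high share can thus follow from the choice of members, and is no separate evidence about the rise. Ndrg1 had no entry, and in Higd1a these letters were not in the window. Below, 4 promoters run 5′ to 3′ along the gene's strand, with matches in capitals. In Bnip3 the matches on both strands overlap as 1 palindrome, so its 2 matches are 1 stretch.
Bnip3, chr7:138909507-138909756, minus strand: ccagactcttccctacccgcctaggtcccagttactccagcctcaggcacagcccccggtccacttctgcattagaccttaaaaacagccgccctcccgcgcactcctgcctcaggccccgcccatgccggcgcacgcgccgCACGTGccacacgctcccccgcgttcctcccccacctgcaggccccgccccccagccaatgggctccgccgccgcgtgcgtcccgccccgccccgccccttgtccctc
Ankrd37, chr8:45999851-46000100, minus strand: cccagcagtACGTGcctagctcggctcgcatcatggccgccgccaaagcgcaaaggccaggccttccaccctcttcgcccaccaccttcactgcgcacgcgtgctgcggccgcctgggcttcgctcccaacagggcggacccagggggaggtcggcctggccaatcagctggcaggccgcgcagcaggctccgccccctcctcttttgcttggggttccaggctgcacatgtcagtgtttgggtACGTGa
Slc2a1, chr4:119108495-119108744, plus strand: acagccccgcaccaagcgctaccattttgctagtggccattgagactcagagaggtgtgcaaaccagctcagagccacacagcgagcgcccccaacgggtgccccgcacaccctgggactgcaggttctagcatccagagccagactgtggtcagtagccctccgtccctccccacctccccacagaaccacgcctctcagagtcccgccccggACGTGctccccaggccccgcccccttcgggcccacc
Egln3, chr12:54203875-54204124, minus strand: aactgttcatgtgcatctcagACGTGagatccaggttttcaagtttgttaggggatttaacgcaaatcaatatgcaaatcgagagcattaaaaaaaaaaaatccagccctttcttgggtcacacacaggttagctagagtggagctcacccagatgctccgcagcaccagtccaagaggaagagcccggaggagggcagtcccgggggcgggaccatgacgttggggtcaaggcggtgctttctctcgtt
Of these 4, Slc2a1 and Egln3 hold 1 match each and Ankrd37 holds 2. A match describes the letters and shows no binding.

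For the cartilage matrix genes the same was done with ACAAT (or ATTGT), a core of sites bound by SOX proteins. It was in 4 of 19 tested cartilage matrix genes with an entry (21.1%), against 2589 of 11643 tested genes (22.2%). The windows of the 2 cartilage genes that rose most are given for comparison, with 1 match in Hapln1 in capitals and 0 in Matn1. SOX proteins are known to act on cartilage genes largely through distant enhancers, which lie outside these windows.
Hapln1, chr13:89540386-89540635, plus strand: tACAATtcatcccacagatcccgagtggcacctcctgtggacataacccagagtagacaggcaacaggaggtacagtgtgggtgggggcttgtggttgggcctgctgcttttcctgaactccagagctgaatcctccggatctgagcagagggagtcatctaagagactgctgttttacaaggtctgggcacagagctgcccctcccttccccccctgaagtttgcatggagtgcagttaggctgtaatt
Matn1, chr4:130944135-130944384, plus strand: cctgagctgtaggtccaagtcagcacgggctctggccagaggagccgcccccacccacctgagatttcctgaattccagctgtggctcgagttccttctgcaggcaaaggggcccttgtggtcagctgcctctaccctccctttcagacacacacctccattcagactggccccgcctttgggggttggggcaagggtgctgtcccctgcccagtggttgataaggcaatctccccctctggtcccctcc

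In signalling, TGF-beta and activin genes had 7 of 19 members higher and 1 lower, with a median of 0.30. Ltbp3, which holds latent TGF-beta in the matrix, rose by 1.24 ± 0.14, without overlap, and the receptor Tgfbr2 by 0.79 ± 0.08, without overlap. Inhba, an activin subunit, rose by 0.93 ± 0.24, a call lost without any 1 of 5 arrays (adjusted p up to 0.0655). The ligand Tgfb1 rose by 0.60, while another of its probe sets was at -0.26 and did not pass (adjusted p = 0.28, limma). The TGF-beta target Ccn2 rose by 0.62. The activin receptor Acvr2b fell by 0.91, without overlap. For BMP, which was not added to these cultures, 3 of 20 targets were higher and 0 lower: Bmper by 1.10, Dlx5 by 0.79 and Id4 by 0.77. Id1, a direct BMP target, was at 9.65, 9.78 and 10.11 at day 2, against 9.82, 9.87 and 10.76 at day 1 (-0.24 ± 0.13, adjusted p = 0.296). Among BMP ligands, receptors and SMADs, Bmp5 rose by 1.30 ± 0.12, without overlap, the receptor Acvr1 rose by 0.36, and the antagonist Chrdl1 fell by 0.61, with 11 of 14 not called. The number block gave 4 higher and 1 lower here, as did leaving out the first intermediate array of day 1.

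Of 11 hedgehog genes, the targets Hhip and Ptch1 rose by 1.05 and 0.55, and Gli3 and Hand2 fell by 0.51 and 0.52. The Ptch1 call was lost without any 1 of 8 arrays (adjusted p up to 0.0941), as was that of Gli3 (adjusted p up to 0.0887). Ptch1 also had another probe set of opposite sign that did not pass. Of 20 WNT genes, the receptors Fzd9 and Fzd5 rose by 1.16 and 0.71 and the antagonist Dkk2 by 1.00, while the antagonists Dkk1 and Frzb fell by 0.56 and 0.34. Another Fzd5 probe set was at 0.25 and did not pass (adjusted p = 0.562, limma), and the Fzd5 call was lost with the mean of probe sets. The Dkk1 call was lost without any 1 of 5 arrays (adjusted p up to 0.0758), and the WNT target Axin2 was at 0.17 ± 0.16. None of 14 Notch genes passed. Of 11 retinoid genes, the retinoic acid binding proteins moved in opposite directions. Crabp1 was at 7.43, 7.71 and 8.87 at day 2, against 6.31, 6.88 and 7.57 at day 1, and rose by 1.04 ± 0.21. Crabp2 fell by 0.67 ± 0.16. Both had been higher at day 0, with medians of 9.96 and 11.40.

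**Figure D5:**
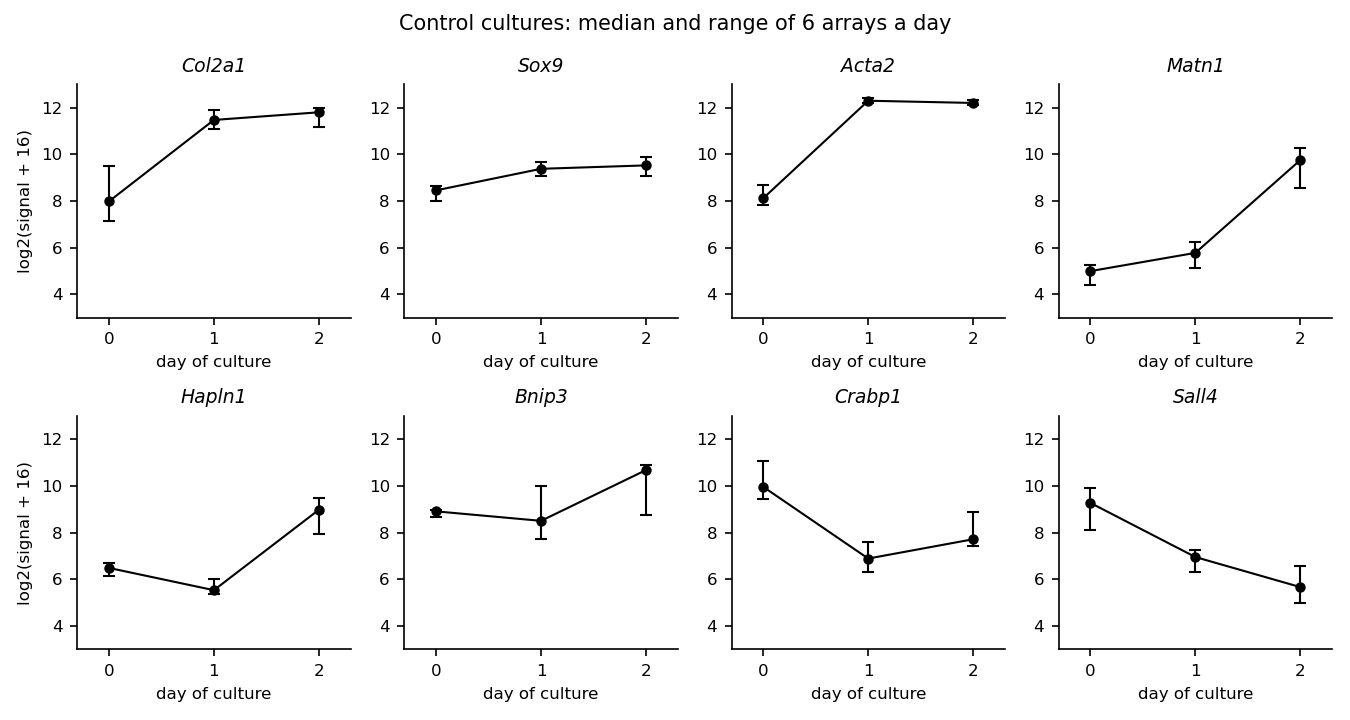
Median and range of the 6 control arrays at days 0, 1 and 2 for 8 genes, on the log2(signal + 16) scale. Col2a1 and Acta2 had medians of 7.98 and 8.12 at day 0, 11.48 and 12.30 at day 1 and 11.81 and 12.21 at day 2, while Matn1 had 4.99, 5.78 and 9.76. Sall4 had 9.27, 6.95 and 5.66.

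Some cell cycle genes were lower. Of 19 DNA replication genes 5 were lower and 0 higher, with a median of -0.20: Cdc6 (-0.45), Uhrf1 (-0.37), Mcm3 (-0.30), Mcm2 (-0.26) and Mcm7 (-0.21). The replicate number as a block gave 8 lower and 1 higher, and centring each array on its median gave 2 lower. The Mcm2 call was lost without any 1 of 9 arrays (adjusted p up to 0.0771). The count was 3 without the first early array of day 2, the first early, first intermediate or first late array of day 1. Of 18 mitosis genes only Plk1 passed (-0.27), a share near the 3.85% of all tested genes that were lower. The Plk1 call was lost without any 1 of 10 arrays (adjusted p up to 0.113), and the number block gave 4 lower mitosis genes. Mki67, a marker of cycling cells, was at 9.01, 9.28 and 9.46 at day 2, against 9.22, 9.39 and 9.57 at day 1 (-0.12 ± 0.09, adjusted p = 0.424). Among inhibitors of cyclin-dependent kinases and p53 targets, 3 of 15 were higher and 0 lower. Cdkn2b (p15) rose by 1.5 ± 0.19 and Cdkn2c (p18) by 1.03 ± 0.12, both without overlap, and Sesn1 by 0.39 ± 0.09. Cdkn1a (p21) was at 0.86 ± 0.26 (adjusted p = 0.0534). The number block raised the count to 9, and it was 6 without the first intermediate array of day 2 and 5 without the second early or the second intermediate array of day 1.

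Of 19 immediate early genes, which respond within minutes to serum and stress, 3 were higher and 0 lower, with Fos at -0.32, Jun at -0.39 and Egr1 at -0.04 not called. The number within population as a block added 2 lower. Klf4 was at 9.15, 9.43 and 9.95 at day 2, against 7.73, 7.84 and 8.20 at day 1, a rise of 1.61 ± 0.14 without overlap. Klf2 rose by 1.40 ± 0.11, without overlap. Both are Krüppel-like factors. Ier3 rose by 0.60 ± 0.17 and was lost without any 1 of 8 arrays (adjusted p up to 0.0984). Of 15 genes of the ER and amino acid stress response, Xbp1, a factor of secretory cells, rose by 0.42 ± 0.06 and Dnajb9, a chaperone, by 0.31 ± 0.06, both without overlap. Of 8 interferon and MHC genes, B2m rose by 0.25 ± 0.07, lost without any 1 of 9 arrays (adjusted p up to 0.0976). None of 16 cholesterol genes passed, and 3 or 4 were higher with a replicate block.

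Smooth muscle actin was bright at both days. Acta2 (smooth muscle actin) was at 12.11, 12.21 and 12.34 at day 2, against 12.19, 12.30 and 12.44 at day 1, so the days overlapped (-0.11 ± 0.05, adjusted p = 0.179), after a day 0 median of 8.12. Mylk and Smtn rose by 0.57 and 0.44, and Srf, the factor that drives this set, fell by 0.30, out of 15 tested. With the number as a block, 3 were higher and 2 lower, and the Srf call was lost without any 1 of 7 arrays (adjusted p up to 0.0734). Skeletal muscle genes had 3 of 24 sarcomere and junction members higher, Tnni1 (1.48 ± 0.41), Myl4 (1.47 ± 0.39) and Casq2 (0.70 ± 0.19), the calls of which were each lost without any 1 of 9, 6 and 7 arrays (adjusted p up to 0.0824, 0.0714 and 0.0719). Another Myl4 probe set was at 0.19 and did not pass (adjusted p = 0.787, limma). The list's summed signal was 2477, 5393 and 17210 at day 2, against 1807, 3785 and 12760 at day 1, with late cultures highest at both days. The count depended on single arrays. It was 0 without the first early, second intermediate or second late array of day 2, or the first intermediate or second late array of day 1. It was 1 without the second early array of day 1, 5 without the second early array of day 2, and 6 without the first early array of day 1. The replicate blocks gave 7 and 11 higher. Of 12 myogenic genes, Mymk, the fusion protein myomaker, rose by 0.92 (lost without any 1 of 6 arrays, adjusted p up to 0.0632) and Mef2a by 0.56, and that block within population gave 5 higher and 1 lower. Myog was at 0.44 ± 0.26 (adjusted p = 0.325, and 0.0114 with the number within population as a block).

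Markers of other cell types gave few calls. Of 14 endothelial genes only Eng rose (0.62 ± 0.15), a share near the 6.76% of all tested genes that were higher. Another Eng probe set was at 0.18 and did not pass (adjusted p = 0.424, limma). The summed endothelial signal was 613.2, 769 and 996.8 at day 2, against 595.3, 709.8 and 768.6 at day 1. None of 14 macrophage genes passed (1 lower with the number block, and 1 without the first late array of day 2), with sums of 823.4, 998.9 and 1247 at day 2, against 906.1, 1077 and 1392 at day 1. None of 5 red cell genes passed. The globin Hba-x had a median of 5.44 at day 2, against 5.53 at day 1, after 11.48 at day 0. Of 12 genes of ectoderm and ridge, Krt8 fell by 0.79 ± 0.11 without overlap (6.88 to 7.07 at day 2, against 7.39 to 8.24 at day 1), and Krt18 fell by 0.57, lost without any 1 of 8 arrays (adjusted p up to 0.0841). Either replicate block gave 4 lower and 1 higher. Their epithelial markers Epcam, Krt5 and Cdh1 did not pass, and the list's sums were 833.5, 1050 and 1469 at day 2, against 1096, 1317 and 1943 at day 1. The part of ectodermal cells in the fall of distal genes was not tested. Of 8 nerve genes Tubb3 fell by 0.62 (2 lower with the number block), and of 7 fat genes none passed, with 2 higher under a replicate block.

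Separate comparisons in each population, with 2 arrays a day, called fewer genes. Early cultures had 162 genes higher (1.12%) and 22 lower (0.152%), intermediate cultures 111 (0.765%) and 19 (0.131%), and late cultures 89 (0.614%) and 12 (0.0827%). Both directions together, leaving out 1 array at a time gave 53 to 184 in early, 49 to 127 in intermediate and 16 to 105 in late cultures. With the replicate number as a block the sums were 549, 398 and 468. Whether a gene's change differed between populations was tested for every gene with an interaction F test in limma. No gene passed after adjustment, and 394 had an unadjusted p under 0.05 (2.72%). That share is below the 0.05 that this threshold would give on average if no gene's change differed. In simulated data, a change in the early population alone was recovered by this test for 2% of genes at 0.5 log2, 24% at 1 log2, 60% at 1.5 log2 and 86% at 2 log2, with 8.51% of its calls false. That simulation had noise independent between arrays and few altered genes, so these rates need not hold here.

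The genes with the smallest interaction p were named after their values were seen. Bmp2, a ligand that promotes cartilage and bone, had 9.16 and 8.78 at day 2, against 7.61 and 7.22 at day 1, in early cultures. In intermediate cultures it had 8.15 and 8.16 at day 2, against 8.68 and 8.30 at day 1, and in late cultures 8.62 and 8.82 at day 2, against 8.11 and 8.21 at day 1. The change was thus 1.56 (early), -0.34 (intermediate) and 0.56 (late) (unadjusted p = 6.57e-05, adjusted p = 0.477, limma). Dscam, a cell adhesion molecule of neurons, changed by -0.33, 0.50 and 2.27 in the same order (unadjusted p = 4.73e-05, adjusted p = 0.477). Arhgap27 changed by 1.38, 1.92 and -0.28. Among the named genes, Aspn rose by 3.90, 2.85 and 4.31, also in that order (adjusted p = 0.854 for the interaction, limma), and passed with a pseudocount of 64 (adjusted p = 0.0266). Lox rose by 2.24, 3.20 and 1.51 and passed with the replicate number as a block (adjusted p = 0.0404). Nwd1 passed without the second intermediate array of day 2 (adjusted p = 0.0066). Scx changed by -0.05, 0.31 and 1.24 and Ihh by 1.79, 0.54 and 1.14, and neither passed the interaction test.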

How the data were processed

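Total RNA of 30 cultures was hybridised to 30 one-colour Affymetrix arrays with 45101 probe sets, and 12 of them were compared. The authors deposited linear signal intensities made with MAS5, per the submitters' processing notes, and the values showed each array scaled to the same trimmed mean of 150 after leaving out 2% at each end. Probe sets were named from the platform annotation: 34945 had 1 gene symbol, 932 had several and 9160 had none, and the last 2 kinds were not used. Named symbols were looked up in a RefSeq gene table of GRCm38.p6, where 34741 probe sets matched.

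Intensities were taken as log2(signal + 16). A probe set was kept if it was above its array's 40th percentile (a signal of 21.3 to 26.8) on at least 2 of 12 arrays, and each gene was represented by its brightest one. A gene could thus be kept through the arrays of the day where it was higher, as Col10a1 was. Among 92 other probe sets of the called named genes, 85 had the same sign and 7 the opposite one without passing (those of Acvr1, Adamts9, B2m, Igdcc3, Mcm3, Mylk and Ptch1). Of the 85, some changed far less than the brightest one and did not pass, among them those of Runx3, Myl4, Fzd5, Eng and Il17rd. Plod1 and Ntn1, called but outside that count, had such a probe set too. Tgfb1, Tfap2a, Mycn and Mtm1, called but outside that count, also had another probe set of opposite sign that did not pass. Another probe set passed for the uncalled list members Bmp7, Cebpb, Cenpe, Col9a1, Des, Dll4, Hmga2, Mcm5, Meis1, Meis2, Rrm1, Rrm2, Serpinh1 and Six4. The pooled comparison was a limma 3.58.1 fit (R 4.3.3) of population and day with empirical Bayes and a variance trend, with 8 residual degrees of freedom, 5.17 prior ones and Benjamini-Hochberg adjustment over 14506 genes. Each population alone, and the interaction, came from a fit of 6 group means.

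The 37 lists hold 594 different genes, of which 556 were on the array and 519 were tested. The members and lists were chosen with earlier results of these data known. Genes were named as the 12 largest called rises and falls, up to 4 called members with the largest change per list, and 15 set genes. Same-numbered samples deviated together between the days (r = 0.236 in early, 0.362 in intermediate and 0.143 in late cultures), and over all 15 pairs of the 6 groups r was 0.114 to 0.369, so the numbers were taken as pairing the samples, across populations as well as days. The main fit has no block, and the blocked fits are alternatives, given where they changed a call or a count by over 1.5 times. The labels do not say what a number stands for. In simulated data for the pooled fit, changes of 0.5 and 1 log2 were called for 46% and 92% of altered genes, with 4% of calls false. The simulated noise was independent between arrays and few genes were altered, unlike in these data, so such rates need not hold here. The number of arrays limits the precision.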

Additional observations from a re-analysis of the deposited data

Results flagged for a closer look

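In 230 groups of 6 arrays (115 named genes at 2 days), 12 held 1 array that stood apart from the other 5 by Dixon's 95% criterion, which chance alone meets in about 1 group in 20. At day 2, 6 values stood apart. Col2a1 was at 11.19 on the first late array, with the nearest other array at 11.77, and Hhip was at 5.899 and Gtpbp6 at 6.252 on that array, against nearest values of 6.928 and 5.311. Bmper was at 9.494 and Ier3 at 9.432 on the second intermediate array, against 9.281 and 8.501. Col10a1 was at 4.285 on the first early array, against 5.233 for the next.

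At day 1, 6 more values stood apart. Mmp2 was at 10.58 and Id1 at 10.76 on the first intermediate array, with nearest values of 9.902 and 10.15. Susd5 was at 5.546 on the second early array (nearest 6.438) and Sp7 at 6.64 on the first early array (nearest 6.296). Srf was at 8.211 on the first late array (nearest 8.43) and Cdkn2c at 6.403 on the second late array (nearest 6.77).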

How the results depend on the processing

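Over 23 alternatives, 74 of the 104 called named genes were never lost, 30 were lost at least once, 10 of them in over 10 alternatives, and 0 changed sign. Under the filter on all 12 arrays, only 88 of the 104 were tested. The genes absent there, Matn1 and Aspn among them, were not counted as lost. The replicate number as a block gave 2549 pooled calls, and 549 in early, 398 in intermediate and 468 in late cultures, against 1539, 184, 130 and 101 without it. The number within population as a replicate block gave 2456, 570, 427 and 455. Beside the counts and calls given in the text, the blocks changed no other call among the named genes. Without the variance trend, early cultures gave 117 calls and late cultures 61. The interaction gave 1 call with a pseudocount of 64, 1 with the replicate number as a block, and 0 to 1 with 1 array left out, where the 1 came without the second intermediate array of day 2. Leaving out 1 array gave 1129 to 1404 pooled calls, 53 to 184 in early, 49 to 127 in intermediate and 16 to 105 in late cultures. Counts fell by over 1.5 times in early cultures without the first (53) or second (74) array of day 2 or the second of day 1 (61). In intermediate cultures they did so without any 1 of their own 4 arrays (49 to 68), as in late cultures (16 to 41). Centring each array on its median gave 766 higher and 305 lower, or 71.5% higher, against 63.7% in the main comparison, and still made 755 and 299 of its calls. With that centring the median change of all genes was 0.00265.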

Other observations

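The comparison has 2 arrays of each population at each day, and all RNA came from whole dishes, so changes in the number of cells and in RNA per cell cannot be told apart. No array of added BMP4 entered it. Dim genes such as Chd7, above the 40th percentile on 2 of 6 arrays of day 2, have changes that the pseudocount makes smaller. Each gene rests on 1 probe set.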
